A study of Mus musculus with 6 samples.

Results

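Oxidative phosphorylation is carried out by 5 protein complexes of the inner mitochondrial membrane. Their nuclear-encoded subunits were taken by gene symbol: Ndufa, Ndufb, Ndufc, Ndufs and Ndufv genes for complex I, Sdha to Sdhd for complex II, Uqcr genes for complex III, Cox4 to Cox8 genes for complex IV and Atp5 genes for complex V, with assembly factors and pseudogenes left out. Of 88 protein-coding symbols that match, 83 had a row in the files, out of 19949 entries in all. Complex I had 38 members, complex II 4, complex III 8, complex IV 16 and complex V 17. Ndufb1, Ndufb4b, Ndufb4c, Cox7b2 and Cox8c had no row, and the 13 subunits encoded by the mitochondrial genome are not analysed here.

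Complexes I and II pass electrons from NADH and succinate to ubiquinone, complex III passes them on to cytochrome c, and complex IV hands them to oxygen. Complexes I, III and IV pump protons while doing so, and complex V, the ATP synthase, uses the proton gradient to make ATP. In the colon, absorptive epithelial cells burn butyrate from bacterial fermentation through this chain, and the muscle layers carry it as well.

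Colon mRNA was sequenced from STAT6-/- mice and from wild-type (WT) mice, with 3 libraries of each genotype. STAT6 is a transcription factor activated by the cytokines interleukin-4 and interleukin-13. Both groups were BALB/c mice of 6 to 8 weeks, and both drank 3% dextran sulfate sodium (DSS), which injures the colonic epithelium, for 3 days, so no group is free of injury. The labels give the tissue as colon, while the protocol speaks of the proximal intestine, and they do not say whether the 3 samples of a genotype came from separate animals. The p-values therefore measure the spread between these samples, which may be partly technical.

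Stat6 had 49.9, 38.5 and 53.2 CPM (counts per library size, adjusted by TMM) in the STAT6-/- libraries, against 91.7, 104 and 88.8 CPM in the WT libraries, a log2 fold change of -1.01 ± 0.16 (SE; edgeR adjusted p = 0.0134). The libraries held 17122315 to 19555450 expected counts. The genotypes also differed in sex markers: Xist stood at 0.265 to 0.992 CPM in STAT6-/- libraries and 352 to 545 CPM in WT libraries, while Eif2s3y, from the Y chromosome, stood at 54.0 to 65.8 CPM in STAT6-/- libraries and at 0 in WT libraries. Genotype and sex cannot be told apart in any value below. In whole tissue, fewer cells of a type and less RNA per cell cannot be told apart either.

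Among the 83 members, 26 fell and 1 rose (edgeR's quasi-likelihood test, adjusted p below 0.05 over 15066 tested genes). That is 31.3% of the members lower, beside a background of 11.5% of all tested genes lower and 11.4% higher. In 45 members the highest STAT6-/- library was below the lowest WT library, which is 54.2%, beside 24.5% of all tested genes. The opposite order was found in 5 members, beside 22.0% of all tested genes. The log2 fold change was below 0 in 63 members, and the members' median was -0.60, against 0.01 for all tested genes.

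The call of single members depended on which libraries entered the fit. Without STAT6-/- replicate 1, 5 members were lower (6.02%), beside 4.94% of all tested genes. Without STAT6-/- replicate 2, 49 were lower (59.0%), beside 15.9%, and without STAT6-/- replicate 3, 17 were lower (20.5%), beside 10.1%. Without WT replicate 1, 6 were lower (7.23%), beside 4.87%. When WT replicate 2 or WT replicate 3 was left out, edgeR called 0 members lower. It also called only 10 (0.0645%) and 6 (0.0390%) of all tested genes lower. At an unadjusted p under 0.05, 29 and 39 members were lower in those fits. The share of all tested genes at that unadjusted p was not counted, so these numbers stand without a background. DESeq2 called 38 members lower with all 6 libraries (14.4% of all genes), 15 in the absence of WT replicate 2 (8.51%) and 28 in the absence of WT replicate 3 (9.08%). The members' median stayed between -0.82 and -0.37 in these 6 edgeR fits.

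**Figure D1:**
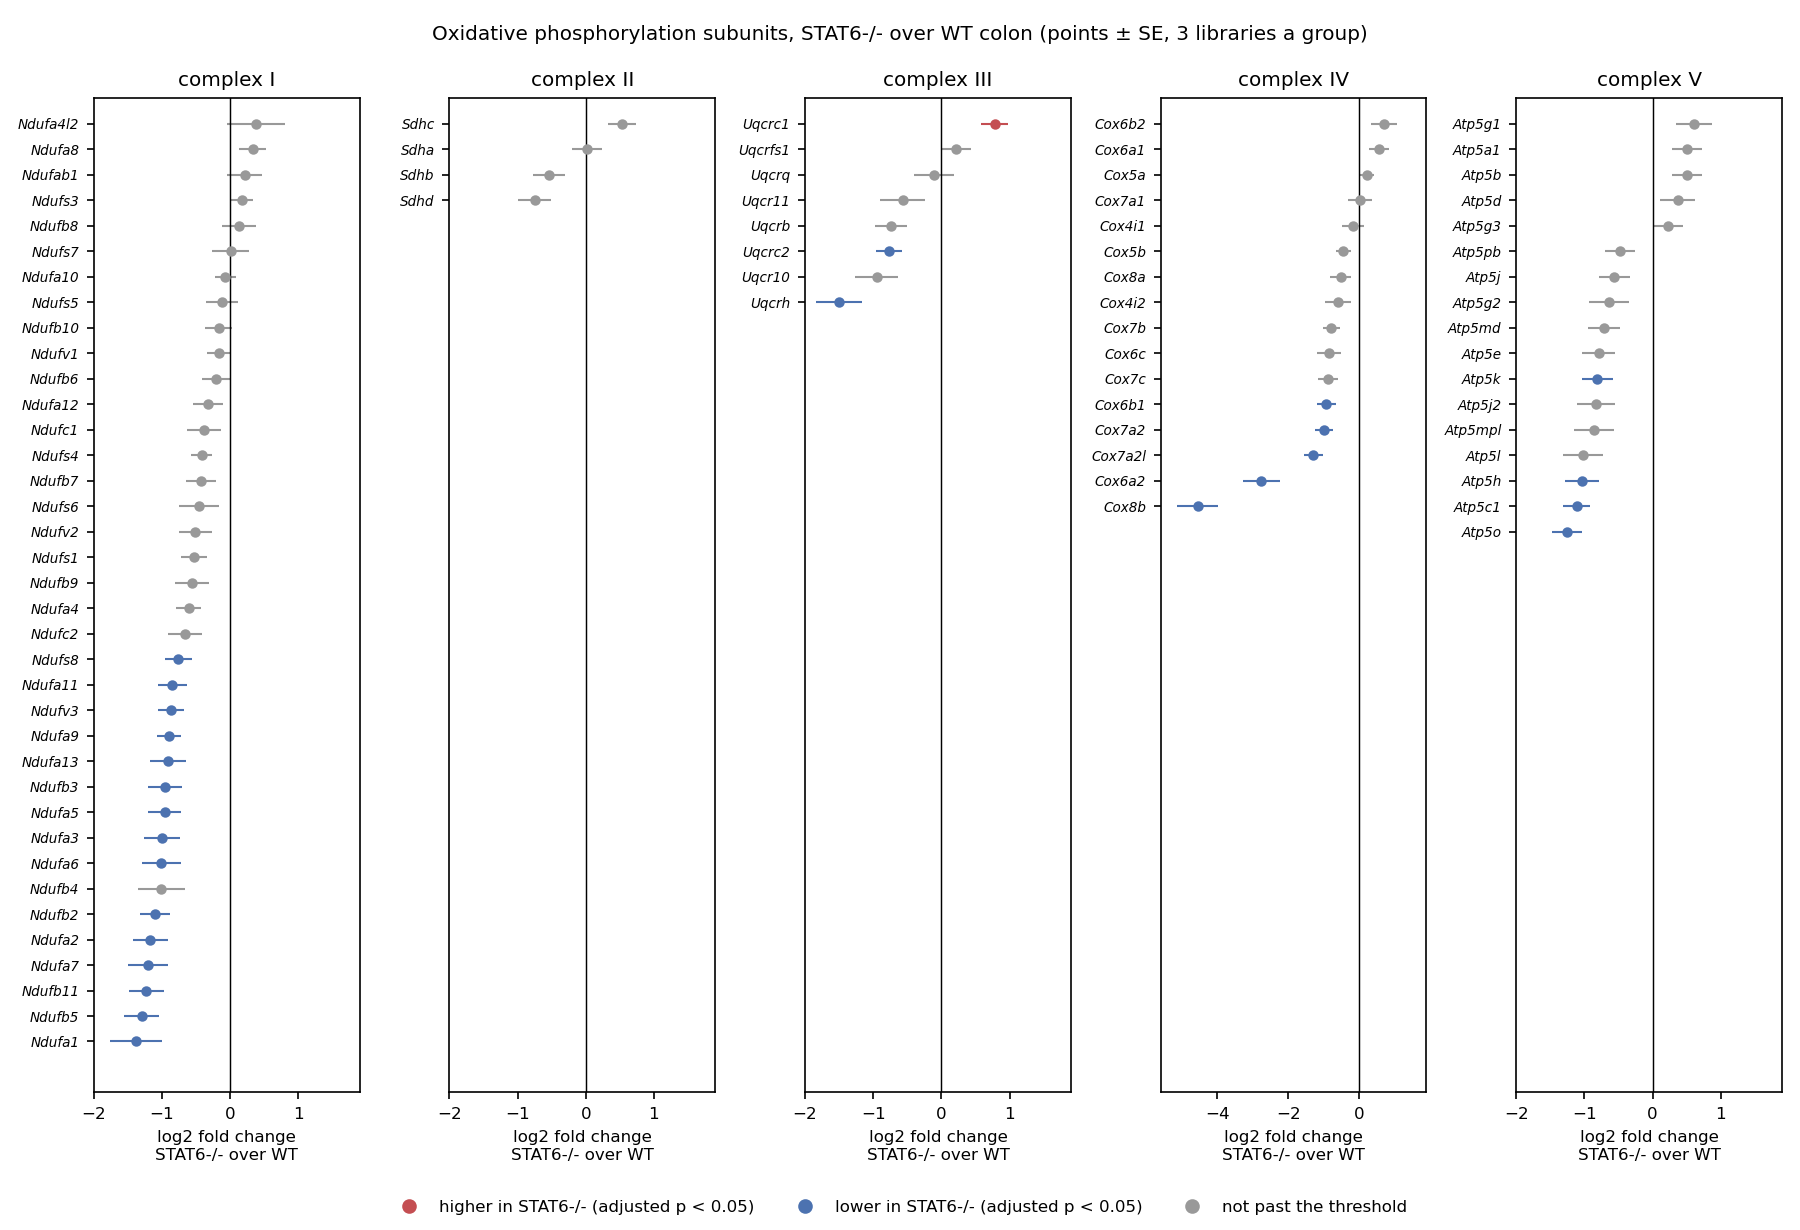
Log2 fold change (STAT6-/- over WT, horizontal axis) with its SE for the members, 1 panel per complex, with a wider axis for complex IV. Blue points passed the test as lower (26 members), the red point, Uqcrc1, passed as higher, and grey points did not pass.

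The members moved together from library to library. Summed over the 83 members, the level was 16989, 22665 and 13862 CPM in STAT6-/- libraries 1 to 3, against 23701, 26160 and 20851 CPM in WT libraries 1 to 3. STAT6-/- replicate 2 lay above WT replicate 3, so the sums overlapped. The STAT6-/- mean was 75.7% of the WT mean. Within the STAT6-/- group, replicate 2 was the highest for 76 members and replicate 3 the lowest for 77. Among WT libraries, replicate 2 was the highest for 74 members and replicate 3 the lowest for 70. Over all tested genes the same libraries held those places for 35.5% to 37.8% of genes.

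**Figure D2:**
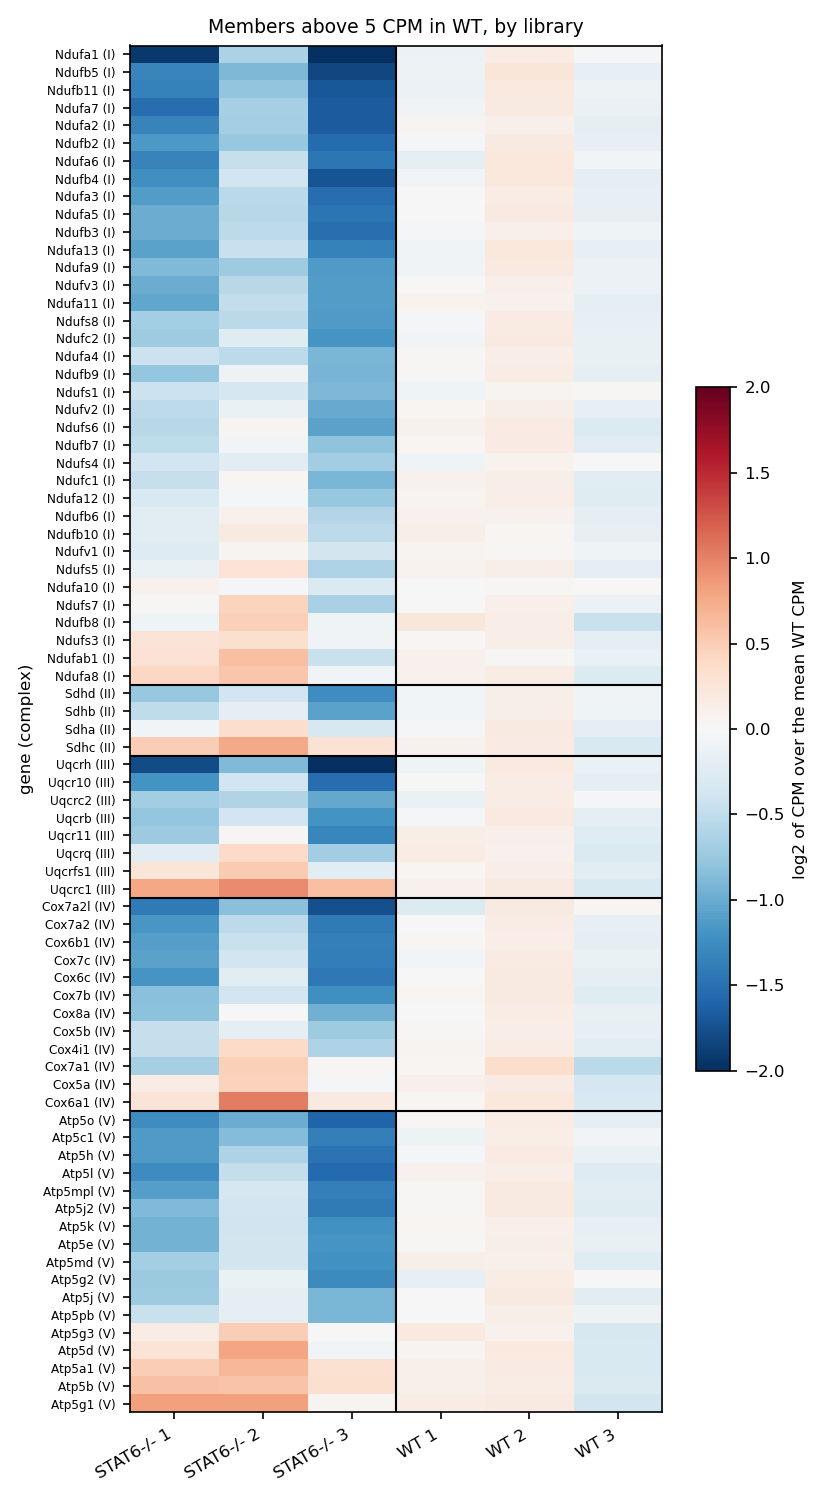
The rows are members with a mean above 5 CPM in WT colons, grouped by complex, and each column a library, STAT6-/- on the left. The colour gives log2 of the CPM over the WT mean. STAT6-/- replicates 1 and 3 are bluest in most rows, replicate 2 lies nearer to WT, and a few rows at the foot of complexes III and V, such as Uqcrc1 and Atp5b, are red.

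Complex I, the NADH dehydrogenase, had 15 of 38 members lower and 0 higher, with a median log2 fold change of -0.55. Its summed level was 3868, 5182 and 3056 CPM in STAT6-/- colons, against 6082, 6791 and 5566 CPM in WT colons. The groups did not overlap, and the STAT6-/- mean was 65.7% of the WT mean. The count of lower members was 1, 22 and 9 without STAT6-/- replicates 1, 2 and 3, and 1 without WT replicate 1, in fits that called 4.94%, 15.9%, 10.1% and 4.87% of all tested genes lower. It was 0 without WT replicate 2 or 3, where 10 and 6 of all tested genes were lower.

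The accessory subunits and the catalytic core of complex I gave different counts, and the difference between them was not tested. Of the 29 accessory subunits, which surround the core and hold it together, 14 fell (48.3%, beside 11.5% of all tested genes), with a median of -0.85. Of the 7 core subunits, which bind NADH and carry the iron-sulfur clusters, 1 fell (14.3%, near that background), with a median of -0.17. Ndufs8, a core subunit with iron-sulfur clusters near the ubiquinone site, was the one, at 84.4, 93.4 and 61.4 CPM in STAT6-/- colons against 133, 151 and 120 CPM in WT colons (log2 fold change -0.76, adjusted p = 0.0345). Among the core subunits that did not pass, Ndufs1, which carries iron-sulfur clusters, had 154, 164 and 111 CPM in STAT6-/- colons, against 196, 214 and 210 CPM in WT colons (log2 fold change -0.53, adjusted p = 0.0793). Transcript length also differed between these sets, with a median of 683 bases for the accessory and 1623 bases for the core subunits. Among all tested genes, 23.7% of those between 600 and 1000 bases were lower, and 13.0% of those between 1000 and 2000 bases.

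Ndufb2, a small subunit of the membrane arm, had the smallest p of complex I. It stood at 53.5, 69.5 and 40.8 CPM in STAT6-/- colons, against 116, 133 and 105 CPM in WT colons, a log2 fold change of -1.11 ± 0.22 (SE; edgeR adjusted p = 0.0184). Ndufa9, a matrix-side subunit where the membrane and matrix arms meet, had 145, 163 and 122 CPM in STAT6-/- colons, against 254, 302 and 248 CPM in WT colons. Its log2 fold change was -0.90 ± 0.18 (adjusted p = 0.0187). Ndufb5, of the membrane arm, had 113, 152 and 79.9 CPM in STAT6-/- colons, against 264, 334 and 252 CPM in WT colons (-1.30 ± 0.26, adjusted p = 0.0195). In all 3 genes each STAT6-/- library lay below each WT library, with STAT6-/- replicate 2 closest to WT.

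The most abundant complex I transcripts per length were also lower. Ndufa6, which anchors the acyl carrier protein to the complex, had 317, 523 and 261 FPKM in STAT6-/- colons, against 634, 773 and 717 FPKM in WT colons. The test on counts gave a log2 fold change of -1.01 ± 0.29 (adjusted p = 0.0468). Ndufa3, a membrane-arm subunit, had 288, 388 and 193 FPKM in STAT6-/- colons, against 557, 579 and 520 FPKM in WT colons (adjusted p = 0.0348 on the counts). Both groups stayed apart in both genes. Ndufb9, close to Ndufa3 in abundance, averaged 349 FPKM in STAT6-/- colons and 491 FPKM in WT colons. It did not pass (-0.56, adjusted p = 0.139 on the counts), and its groups overlapped.

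Complex I also includes members on the X chromosome, named here because the groups differ in sex markers. Ndufa1, a small membrane-arm subunit needed for assembly, had 55.5, 136 and 53.4 CPM in STAT6-/- colons, against 195, 234 and 207 CPM in WT colons. It fell by 1.38 on the log2 scale (adjusted p = 0.0415). Ndufb11, likewise of the membrane arm, had 121, 178 and 94.6 CPM in STAT6-/- colons, against 285, 353 and 287 CPM in WT colons (-1.23, adjusted p = 0.0215). Cox7b, the X-linked subunit of complex IV, had 276, 378 and 212 CPM in STAT6-/- colons, against 508, 560 and 418 CPM in WT colons (-0.78, adjusted p = 0.0636). In all 3 X-linked members the STAT6-/- libraries lay below the WT libraries, as in 54.2% of all members and 24.5% of all tested genes. Their median was -1.23, against -0.60 for all members. Apart from Cox8b and Cox6a2, the lowest value of all members was -1.50, for Uqcrh on chromosome 4. Over the main fit and its alternatives, Ndufa1 ranged from -1.93 to -0.61, Ndufb11 from -1.49 to -0.99 and Cox7b from -0.99 to -0.13.

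Complex II, succinate dehydrogenase, had 0 of 4 members past the threshold in edgeR, and 2 had an unadjusted p under 0.05. Sdha, the flavoprotein that oxidizes succinate, had 336, 444 and 280 CPM in STAT6-/- colons, against 345, 397 and 305 CPM in WT colons (0.02, adjusted p = 0.959). Sdhb, the iron-sulfur subunit, had 219, 275 and 148 CPM in STAT6-/- colons, against 301, 339 and 292 CPM in WT colons (-0.54, adjusted p = 0.146). The Sdha groups overlapped, and the Sdhb groups did not.

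The membrane anchors of complex II lay in opposite directions, without passing the test. Sdhc had 218, 261 and 190 CPM in STAT6-/- colons, against 165, 174 and 126 CPM in WT colons (0.53 ± 0.20, adjusted p = 0.0940). Sdhd had 237, 307 and 169 CPM in STAT6-/- colons, against 387, 432 and 381 CPM in WT colons (-0.75 ± 0.24, adjusted p = 0.0619). Neither gene overlapped between the groups. DESeq2 called 1 complex II member lower, and edgeR called 2 without STAT6-/- replicate 2.

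Complex III, the cytochrome bc1 complex, had 2 of 8 members lower and 1 higher, with a median of -0.66. Uqcrh, the hinge protein that helps cytochrome c dock, was at 194, 362 and 154 CPM in STAT6-/- colons, against 629, 767 and 610 CPM in WT colons. That is a log2 fold change of -1.50 ± 0.34 (SE; edgeR adjusted p = 0.0252), or 2.82-fold lower. Per length it averaged 449 ± 202 FPKM in STAT6-/- colons and 1214 ± 90.4 FPKM in WT colons (SD, n = 3 each), where it was the most abundant subunit of its complex.

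The 2 core proteins of complex III, which support the complex on the matrix side and descend from processing peptidases, moved in opposite directions. Uqcrc1 had 347, 388 and 307 CPM in STAT6-/- colons, against 214, 230 and 163 CPM in WT colons (0.78 ± 0.20, adjusted p = 0.0319). Uqcrc2 had 367, 391 and 292 CPM in STAT6-/- colons, against 542, 659 and 584 CPM in WT colons (-0.77 ± 0.19, adjusted p = 0.0319). Neither gene overlapped between the groups. Per length, Uqcrc2 and Uqcrc1 stood at 190 ± 34.8 and 214 ± 29.8 FPKM in STAT6-/- colons, and at 308 ± 21.5 and 118 ± 15.1 FPKM in WT colons (SD, n = 3 each). Uqcr10, a small subunit, averaged 185 ± 78.6 CPM in STAT6-/- colons and 358 ± 40.9 CPM in WT colons (-0.95, adjusted p = 0.0621). With length and GC trends removed, as described further on, neither passed, at 0.58 for Uqcrc1 (adjusted p = 0.0646) and -0.52 for Uqcrc2 (adjusted p = 0.0684). The count of lower members was 5 without STAT6-/- replicate 2, where 15.9% of all tested genes were lower. It was 0 without STAT6-/- replicate 1 or any 1 of the WT libraries, where 4.94% of all tested genes or fewer were lower.

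Complex IV, cytochrome c oxidase, had 5 of 16 members lower and 0 higher, with a median of -0.69. Of the 11 broadly expressed subunits, 3 fell. Cox7a2l, known from supercomplexes of complexes III and IV, had 130, 195 and 103 CPM in STAT6-/- colons, against 289, 395 and 359 CPM in WT colons (-1.29 ± 0.27, adjusted p = 0.0214). Cox7a2, its relative within the enzyme, had 214, 333 and 180 CPM in STAT6-/- colons, against 481, 533 and 430 CPM in WT colons (-0.99 ± 0.26, adjusted p = 0.0362). Cox6b1, on the side of the intermembrane space, averaged 694 ± 228 FPKM in STAT6-/- colons and 1256 ± 77.1 FPKM in WT colons (-0.92 on the count scale, adjusted p = 0.0477). None of the 3 overlapped. Leaving out STAT6-/- replicates 1, 2 and 3 in turn gave 2, 9 and 3 lower members, and leaving out WT replicate 1 gave 3, beside 4.94%, 15.9%, 10.1% and 4.87% of all tested genes. Leaving out WT replicate 2 or 3 gave 0, beside 10 and 6 of all tested genes.

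Some subunits of complex IV come in pairs, with a form restricted to certain tissues beside a broadly expressed one. Cox8b and Cox6a2, forms known from heart, skeletal muscle and, for Cox8b, brown fat, fell furthest of all members. Cox8b was counted 3, 1 and 7 times in STAT6-/- libraries and 71, 75 and 82 times in WT libraries, and the STAT6-/- values lie near the limit of 3 counts that a count of 0 allows. Its log2 fold change was -4.55 ± 0.58 (SE; edgeR adjusted p = 0.00965), the smallest p of the 83 members. It was -5.38 without STAT6-/- replicate 3. With WT replicate 2 left out the adjusted p was 0.0640, and with WT replicate 3 left out 0.0675.

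Cox6a2 was counted 4, 2 and 1 times in STAT6-/- libraries and 13, 15 and 14 times in WT libraries (-2.76 ± 0.52, adjusted p = 0.0168). It was -0.92 on log2(FPKM + 1), which understates changes of low genes, and its adjusted p was 0.0816 and 0.0802 with WT replicate 2 or 3 left out. Cox8a, the broad partner of Cox8b, had 413, 735 and 374 CPM in STAT6-/- colons, against 727, 805 and 657 CPM in WT colons (-0.52, adjusted p = 0.215), and the groups overlapped. Cox6a1, the broad partner of Cox6a2, had 526, 895 and 497 CPM in STAT6-/- colons, against 451, 507 and 356 CPM in WT colons (0.55, adjusted p = 0.190), and these groups overlapped too. Per length, Cox8b averaged 0.533 ± 0.444 FPKM in STAT6-/- colons and 12.4 ± 0.955 FPKM in WT colons, while Cox8a averaged 995 ± 371 FPKM in STAT6-/- colons and 1371 ± 64.4 FPKM in WT colons. Cox8b was far below Cox8a in both genotypes.

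Cox7a1, another form known from heart and skeletal muscle, had a log2 fold change near 0. It had 17.6, 38.7 and 28.5 CPM in STAT6-/- colons, against 28.8, 35.6 and 19.3 CPM in WT colons (0.02 ± 0.34, adjusted p = 0.973), and its sign turned under several settings. Cox4i2, a form raised by low oxygen in lung, averaged 0.943 ± 0.0875 CPM in STAT6-/- colons and 1.43 ± 0.355 CPM in WT colons (-0.60, adjusted p = 0.253). Its partner Cox4i1, the usual form, averaged 598 ± 238 CPM in STAT6-/- colons and 670 ± 86.5 CPM in WT colons (-0.17, adjusted p = 0.701; 0.06 without STAT6-/- replicate 3). Cox6b2, known from testis, had 2.01, 1.36 and 2.43 CPM in STAT6-/- colons, against 1.12, 1.30 and 1.13 CPM in WT colons (0.70, adjusted p = 0.184).

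Ndufa4 carries a complex I name but is now placed with complex IV. It had 142, 133 and 102 CPM in STAT6-/- colons, against 195, 210 and 173 CPM in WT colons (-0.61 ± 0.18, adjusted p = 0.0501), with no overlap. With length and GC trends removed its value was 0.23. Ndufa4l2, a paralog induced by low oxygen, averaged 1.34 ± 0.578 CPM in STAT6-/- colons and 1.03 ± 0.196 CPM in WT colons (0.38, adjusted p = 0.533). It lies 126 kb from Stat6 on chromosome 10 (127509274 to 127517154, mm10), next to the disrupted locus.

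**Figure D3:**
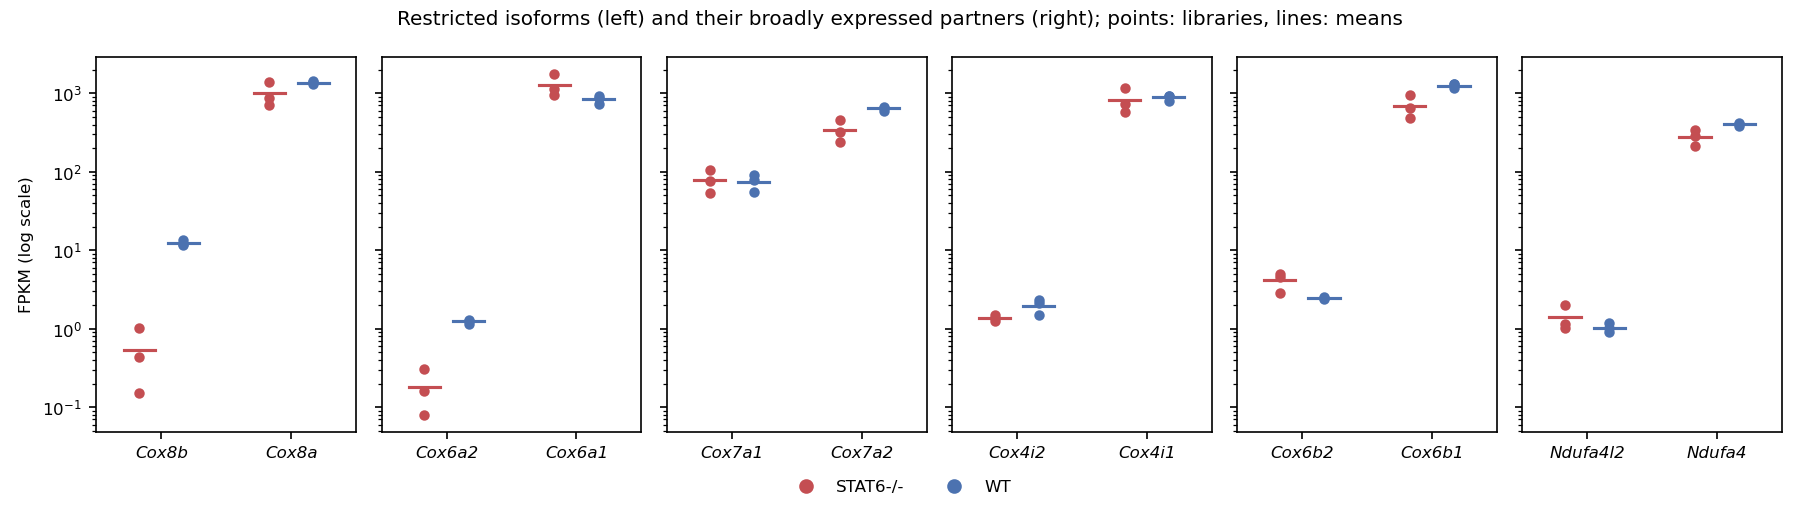
FPKM (log axis) of each restricted isoform, left in its panel, and its broadly expressed partner, right, with STAT6-/- libraries in red to the left of WT libraries in blue and lines at the means. Cox8b and Cox6a2 are separated between genotypes, and Cox7a1 is not.

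Summed levels of muscle and adipocyte markers were lower in the STAT6-/- group, as were Cox8b and Cox6a2. The other 3 restricted forms of complex IV did not pass. The summed level of 6 smooth muscle markers was 2276 to 5151 CPM in STAT6-/- colons and 8692 to 10731 CPM in WT colons, and 5 of the 6 fell. For 12 striated muscle markers it was 10.03 to 28.19 CPM in STAT6-/- colons and 30.34 to 74.94 CPM in WT colons. Of 5 tested markers 2 were lower, Ckm and Actn3, while Mb, Myh6 and Myh7 were at or near 0 in all libraries. Acta1 averaged 7.97 CPM in STAT6-/- colons and 5.68 CPM in WT colons (0.49, adjusted p = 0.560). In WT library 1, Myh4, Pvalb and Tnnt3 had 5.91, 4.38 and 4.97 CPM, and no other library passed 0.681 CPM for them. For 6 adipocyte markers it was 9.607 to 26.77 CPM in STAT6-/- colons and 42.82 to 251.2 CPM in WT colons, with 3 of 4 tested markers lower. Ucp1, which defines brown fat, was 0 in all STAT6-/- libraries and at most 0.113 CPM in WT libraries. Within WT libraries 1 to 3 the order differed. Cox8b had 4.20, 4.65 and 4.65 CPM, the adipocyte sum was 42.82, 76.37 and 251.2 CPM, and the striated sum 74.94, 30.34 and 41.86 CPM. The part that muscle and fat content play in the level of Cox8b and Cox6a2 was not tested.

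The starts of Cox8b and Cox8a are shown because this pair differed most between its forms. Each window runs from 250 bases before to 50 bases after the start and is RefSeq sequence of GRCm38.p6, the assembly of mm10, read 5′ to 3′ on the gene's strand. Cox8b lies at chr7:140900397-140900696, minus strand, and Cox8a at chr19:7217567-7217866, minus strand. In Cox8b, capitals mark the letters TATAAA and an E-box of the class that muscle bHLH factors recognise, which reads CAGCTG. In Cox8a they mark the ETS core, of the class that GABP recognises, which reads CCGGAAG and lies here on the reverse strand.
Cox8b: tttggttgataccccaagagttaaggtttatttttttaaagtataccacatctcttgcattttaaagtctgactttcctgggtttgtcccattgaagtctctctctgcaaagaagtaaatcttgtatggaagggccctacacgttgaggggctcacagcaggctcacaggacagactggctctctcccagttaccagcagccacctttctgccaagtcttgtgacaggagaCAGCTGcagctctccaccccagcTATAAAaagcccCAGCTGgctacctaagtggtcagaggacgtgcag
Cox8a: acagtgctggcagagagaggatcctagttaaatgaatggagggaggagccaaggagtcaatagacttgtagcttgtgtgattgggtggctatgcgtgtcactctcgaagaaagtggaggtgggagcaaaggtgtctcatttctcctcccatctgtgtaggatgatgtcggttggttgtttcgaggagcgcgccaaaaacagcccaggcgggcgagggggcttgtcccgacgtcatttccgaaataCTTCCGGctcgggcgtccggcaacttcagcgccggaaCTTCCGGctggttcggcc
The Cox8b window held CAGCTG at 2 places and TATAAA at 1, and the Cox8a window held the ETS core at 2 places and neither of the other motifs. In Cox8b the first CAGCTG lies before the annotated start, while TATAAA and the second CAGCTG lie after it. In Cox8a the first ETS core spans the annotated start and the second lies after it. A match is a description of the letters and not evidence that a factor binds.

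Across the members, 73 windows of 68 genes were searched on both strands and set beside 32851 windows of all genes. The ETS core CCGGAAG was in 23.3% of member windows and 8.86% of all windows. The NRF1 core GCATGCGC was in 13.7% and 2.71%, the YY1 core AAGATGGCG in 9.59% and 1.40%, and the ERR half-site AAGGTCA in 11.0% and 4.72%. CAGCTG was in 8.22% and 16.3%, and TATAAA in 11.0% and 13.6%. CCGGAAG and AAGATGGCG can overlap by their shared AAG. Uqcrc1, the member that rose, is among the 10 genes with the NRF1 core, as are Ndufa6 and Ndufa11, which fell.

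Complex V, the ATP synthase, had 4 of 17 members lower and 0 higher, with a median of -0.71. The summed level was 6816, 8176 and 5562 CPM in STAT6-/- colons, against 8046, 8646 and 6742 CPM in WT colons, and the groups overlapped. The STAT6-/- mean was 87.7% of the WT mean. With STAT6-/- replicates 1, 2 and 3 left out in turn, 2, 11 and 3 members were lower, and 2 with WT replicate 1 left out, beside 4.94%, 15.9%, 10.1% and 4.87% of all tested genes. With WT replicate 2 or 3 left out, 0 were lower, beside 10 and 6 of all tested genes.

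Within the enzyme, the sums of the catalytic head, the stalk and the small membrane subunits gave different values, and the difference was not tested. Transcript length differed too, with medians of 1167, 821.4 and 371 bases. The 5 head (F1) subunits summed to 4141, 4592 and 3502 CPM in STAT6-/- colons, against 3705, 3956 and 3037 CPM in WT colons, and overlapped. Of these 5, 3 had a log2 fold change above 0 and 2 below it, Atp5c1 and Atp5e. Atp5e was at -0.79 (adjusted p = 0.0519), without overlap. Atp5b, the catalytic beta subunit and the most abundant member by counts, had 1991, 1990 and 1662 CPM in STAT6-/- colons, against 1436, 1472 and 1092 CPM in WT colons (0.50 ± 0.22, adjusted p = 0.135). Atp5a1, the alpha subunit beside it, had 1318, 1483 and 1153 CPM in STAT6-/- colons, against 1007, 1045 and 753 CPM in WT colons (0.50 ± 0.22, adjusted p = 0.138). Neither passed the test, although the STAT6-/- libraries stood above the WT libraries without overlap in both, and DESeq2 called Atp5b higher. Atp5b lies on chromosome 10 (128083307 to 128090388, mm10), near the disrupted Stat6 (127642955 to 127660987). The part of that position in its level was not tested.

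Atp5c1, the gamma subunit that turns inside that head, fell. It had 340, 406 and 288 CPM in STAT6-/- colons, against 692, 818 and 719 CPM in WT colons (-1.11 ± 0.20, adjusted p = 0.0157). Atp5o, which ties the head to the peripheral stalk, had 262, 314 and 205 CPM in STAT6-/- colons, against 633, 691 and 541 CPM in WT colons (-1.26 ± 0.22, adjusted p = 0.0149). Atp5h, subunit d of the stalk, had 182, 262 and 144 CPM in STAT6-/- colons, against 389, 446 and 365 CPM in WT colons (-1.03 ± 0.25, adjusted p = 0.0296). The genotypes did not overlap in these 3 genes.

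The 4 stalk subunits together summed to 994.4, 1282 and 773.2 CPM in STAT6-/- colons, against 1816, 2015 and 1629 CPM in WT colons. The 5 small membrane subunits, which help the enzyme to form dimers, summed to 772.7, 1166 and 584.2 CPM in STAT6-/- colons, against 1596, 1704 and 1304 CPM in WT colons. Neither set overlapped, and the STAT6-/- means were 55.9% and 54.8% of the WT means. All 9 genes had a log2 fold change below 0, and 3 of them fell: Atp5o, Atp5h and Atp5k. Atp5j2, the most abundant of the membrane subunits, averaged 557 ± 195 FPKM in STAT6-/- colons and 940 ± 89.1 FPKM in WT colons (-0.83, adjusted p = 0.0733).

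The proton-carrying ring of complex V is built from 1 protein encoded by 3 genes. Atp5g1 had 244, 245 and 143 CPM in STAT6-/- colons, against 153, 156 and 106 CPM in WT colons (0.61 ± 0.27, adjusted p = 0.134). Atp5g2 had 200, 305 and 139 CPM in STAT6-/- colons, against 298, 373 and 334 CPM in WT colons (-0.64 ± 0.29, adjusted p = 0.147). Atp5g3, the most abundant of them, had 463, 586 and 420 CPM in STAT6-/- colons, against 479, 442 and 334 CPM in WT colons (0.23 ± 0.22, adjusted p = 0.465). All 3 overlapped, and their summed STAT6-/- mean was 103% of the WT mean.

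**Figure D4:**
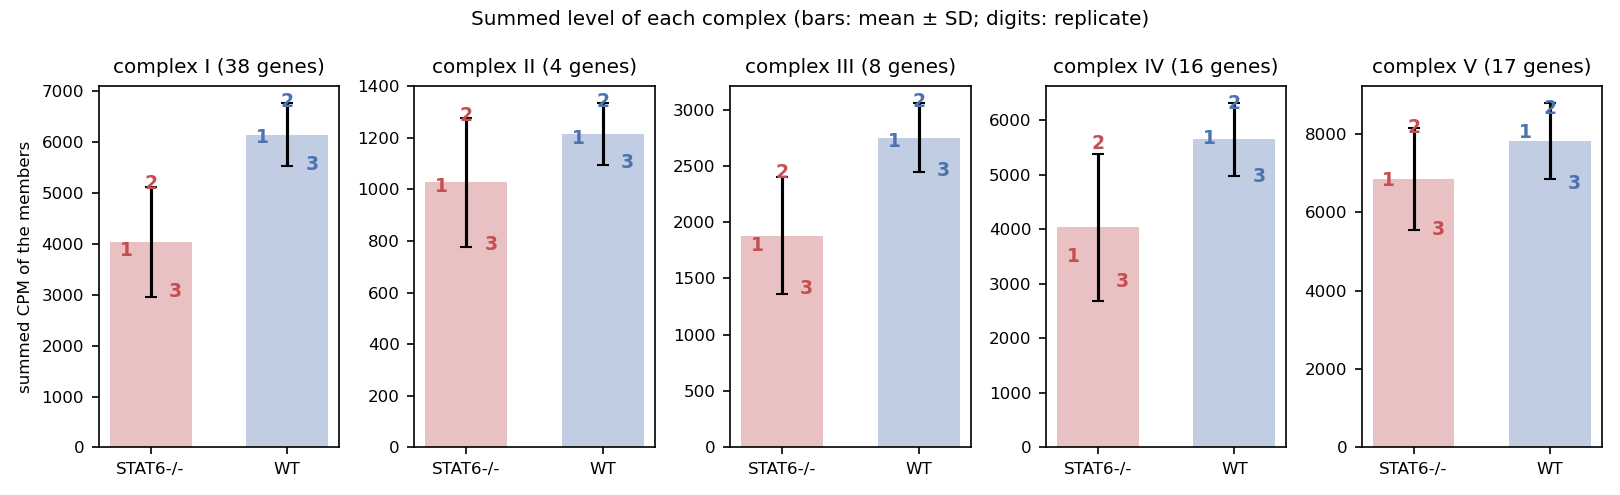
Summed CPM of the members of each complex. Bars are means with SD, STAT6-/- left of WT, and each digit is the library with that replicate number. Complexes I and III do not overlap between the genotypes, while complexes II, IV and V do, and replicate 2 is the highest library of both groups.

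Transcript length went with the size of the difference. Of the 27 members with transcripts of up to 600 bases, 10 fell, beside 31.7% of all tested genes of that length, with a median of -0.85. Of the 30 between 600 and 1000 bases, 10 fell, beside 23.7%, with a median of -0.60. Of the 20 between 1000 and 2000 bases, 6 fell, beside 13.0%, with a median of -0.50. Of the 6 between 2000 and 4000 bases, 0 fell, beside 9.59%, with a median of 0.11. All tested genes showed the same order, with medians of -0.74, -0.44, -0.08 and 0.09 in these classes. Spearman's rho between length and log2 fold change was 0.36 over the 83 members and 0.11 over 14853 genes, as a description, since genes of a library are not independent.

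When the trends of counts on transcript length and GC content were removed in each library, 16 members were lower and 3 higher, beside 7.19% of all tested genes lower. The 16 had all been called lower before. They were 10 of complex I, Uqcrh of complex III, Cox8b, Cox6a2 and Cox7a2l of complex IV, and Atp5c1 and Atp5o of complex V. The 3 higher were Atp5g3, Cox5a, a broad subunit of complex IV, and Cox6a1. The members' median was then -0.19, and the medians of complexes I to V were -0.24, -0.27, -0.10, -0.15 and -0.32.

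**Figure D5:**
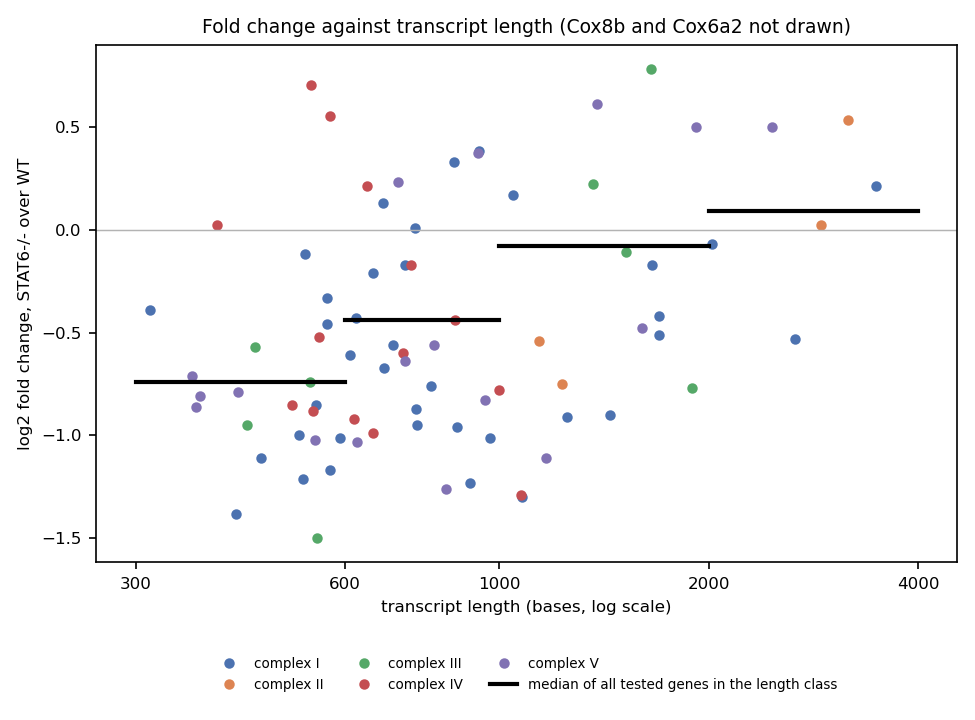
Log2 fold change (STAT6-/- over WT) of the members against transcript length (log axis), coloured by complex, without Cox8b and Cox6a2. Black lines are medians of all tested genes in 4 length classes, -0.74, -0.44, -0.08 and 0.09, and the members of up to 600 bases lie mostly below 0.

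Members with a short and a long transcript allow the same gene to be read at 2 lengths, and 2 such genes were picked after their values were seen. Ndufv3, a complex I accessory subunit, had 51.9, 72.2 and 38.6 CPM of its short transcript (493 bases) in STAT6-/- colons, against 125, 143 and 113 CPM in WT colons. Its long transcript (1582 bases) had 25.2, 32.4 and 32.2 CPM in STAT6-/- colons, against 28.7, 22.7 and 28.9 CPM in WT colons. The long form was 31.0% to 45.4% of the gene in STAT6-/- colons and 13.7% to 20.4% in WT colons, without overlap. For Atp5g1 the long form (4715 bases) was 18.2% to 18.8% of the gene in STAT6-/- colons and 18.5% to 23.7% in WT colons. These shares are estimates by the authors' software from reads that both transcripts share, and they carry no test here.

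Other genes of the pathway were read from a list of 121, of which 101 were tested. Of these, 8 rose and 17 fell, which is 16.8% lower beside the 11.5% of all tested genes, and the median was -0.17. Of 48 assembly factors of complexes I to IV, 3 rose and 10 fell, which is 20.8% lower. All tested genes were 11.4% higher and 11.5% lower. Cox18, which inserts a core subunit of complex IV, had 21.0, 13.6 and 15.7 CPM in STAT6-/- colons, against 7.10, 6.89 and 5.11 CPM in WT colons (1.40 ± 0.26, adjusted p = 0.0162). Sco1, a copper chaperone of the same complex, and Cox10, which makes its heme, rose by 0.90 and 1.16 on the log2 scale. Among those that fell were Sdhaf4 (-1.40, complex II), Uqcc3 (-1.19, complex III), Cox16 (-1.15, complex IV) and Tmem126b (-1.01, complex I).

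Cytochrome c and its partner in complex III did not pass the test. Cyc1, cytochrome c1, had 334, 372 and 247 CPM in STAT6-/- colons, against 228, 210 and 149 CPM in WT colons (0.70 ± 0.24, adjusted p = 0.0715), without overlap. Cycs, cytochrome c itself, had a log2 fold change of 0.21 (adjusted p = 0.487). Of 13 citrate cycle genes, Ogdh rose (0.71, adjusted p = 0.0291), and Sucla2, Idh3b and Idh3g fell (-0.96, -0.66 and -0.53). That is 23.1% lower, beside 11.5% of all tested genes.

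Ucp2, a mitochondrial carrier, rose: it had 514, 468 and 443 CPM in STAT6-/- colons, against 259, 280 and 208 CPM in WT colons (0.93 ± 0.18, adjusted p = 0.0184). Slc25a4, the ADP/ATP carrier form known from heart and muscle, had 74.3, 52.1 and 92.6 CPM in STAT6-/- colons, against 161, 127 and 155 CPM in WT colons (-1.02 ± 0.23, adjusted p = 0.0260). Both were free of overlap. Coq8b, of ubiquinone synthesis, rose (0.89, adjusted p = 0.0144) and Coq7 of the same pathway fell (-0.72, adjusted p = 0.0410).

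Regulators of these genes gave 2 rises and 1 fall among 16, shares near or below the 11.4% higher and 11.5% lower of all tested genes. Pprc1, a coactivator of mitochondrial genes, and Polrmt, the mitochondrial RNA polymerase, rose (1.14 and 0.86, adjusted p = 0.0213 and 0.0444). Tfb2m, which opens mitochondrial promoters for it, fell (-0.76, adjusted p = 0.0353). Ppargc1a, the coactivator PGC-1alpha, had 14.7, 51.2 and 15.1 CPM in STAT6-/- colons, against 55.1, 64.8 and 118 CPM in WT colons (-1.56 ± 0.55, adjusted p = 0.0820). STAT6-/- replicate 2 was the highest of its group for Ppargc1a, as for 76 members, but WT replicate 3, the lowest WT library for 70 members, had the highest Ppargc1a of all.

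Epithelial markers were present in all libraries, but no list that tells colon from small intestine was examined. Summed levels of 10 surface colonocyte markers were 13255 to 18059 CPM in STAT6-/- colons and 11800 to 16639 CPM in WT colons, overlapping, with 2 higher and 1 lower. Those of 5 goblet cell markers were 6636, 14179 and 6214 CPM in STAT6-/- libraries 1 to 3 and 7198 to 7841 CPM in WT libraries, with 0 past the threshold. Those of 7 leukocyte markers were 461.8, 71.22 and 340.8 CPM in STAT6-/- libraries 1 to 3 and 72.16 to 89.62 CPM in WT libraries, and 1 of the 7, Cd3e, rose. For 6 crypt and proliferation markers the STAT6-/- mean was 297% of the WT mean, and the sums overlapped. Mki67 and Top2a rose, and of 4 tested markers 3 had a log2 fold change above 0. The other was Lgr5 (-0.94, adjusted p = 0.220). For 4 endothelial markers the STAT6-/- mean was 310% of the WT mean, without overlap (Plvap rose). For 5 fibroblast markers it was 45.9%, with overlap, where Lum fell and 1 marker was above 0. For 6 pericyte markers it was 61.2%, with overlap, where Rgs5 fell and 3 markers were above 0. Markers of enteric neurons and glia averaged 105% of the WT mean (S100b fell). Among the 10 surface colonocyte markers, 7 had a log2 fold change above 0 and 3 below it. Vil1 and Krt20 rose (1.19 and 1.48), and Car1 fell (-3.40, adjusted p = 0.00732). Slc26a3 was at -1.75 (adjusted p = 0.0799), without overlap. STAT6-/- replicate 2, with a leukocyte level like that of WT, was also the library with the highest subunit levels of its group. The part of these cell types in the members' values was not tested.

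The genes whose levels ran most like the mean log2 CPM of the members over the 6 libraries were Lnx1, Micos13, Fbxo33, Trappc4 and Slc20a1, with Pearson's r of 0.9996 to 0.995. The mean of the members was 6.82, 7.24 and 6.53 in STAT6-/- libraries and 7.46, 7.60 and 7.27 in WT libraries. Micos13, a protein of the inner-membrane cristae junctions, had 63.8, 106 and 47.2 CPM in STAT6-/- colons, against 141, 160 and 115 CPM in WT colons (-0.94, adjusted p = 0.0664). The 5 were picked from all tested genes for this likeness over 6 libraries that form 2 groups, so the r values describe the choice.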

How the data were processed

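Colon mRNA of 3 STAT6-/- and 3 WT libraries was compared. The expected counts were deposited by the authors per RefSeq transcript, as estimates that are not scaled to depth, per the file headers. FPKM, which the authors deposited for the same transcripts, takes length and depth into account. According to the submitters' processing notes the tools were Bowtie2 2.2.5 and RSEM 1.2.12 and the genome mm10.

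Expected counts were summed per gene and rounded to whole numbers, with transcripts assigned to genes by RefSeq and GENCODE tables. Transcripts without a gene name held 0.167% of the counts. Libraries held 17122315 to 19555450 expected counts, so that the limit of 3 counts is 0.153 to 0.175 CPM, which covers counting error only. The genotype test was edgeR's quasi-likelihood test (version 4.0.16, R 4.3.3) with TMM factors, filterByExpr and robust estimation, adjusted by Benjamini-Hochberg over 15066 genes. "Rose" and "fell" mean an adjusted p below 0.05 in that test, and adjusted p-values come from it unless another tool is named. Tested on simulated counts for 15066 genes, it called 41 of 100 genes changed 2-fold and 99 of 100 changed 4-fold, with 2 false calls. The simulation gave every gene a dispersion (spread between replicates) of 0.05, below the common dispersion of 0.102 in these libraries. Those calls therefore hold for less variable data than the real libraries.

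Alternatives were DESeq2 1.42.0, limma-voom and limma 3.58.1 on log2 FPKM, other scalings and filters, a replicate block, removal of length and GC trends with mgcv 1.9.3, and each library left out. The members and lists were chosen with earlier results of these data known. Named members are, per complex, the 3 called with the smallest p in each direction and the 2 most abundant by FPKM, with the isoform pairs, the Atp5g genes, the X-linked members and all of complex II. Members outside that rule were named after their values were seen. For 1 of the members, values are included in the counts, medians and sums but not reported here, and it is left out of the plots of single members.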

Additional observations from a re-analysis of the deposited data

How the results depend on the processing

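Over 22 alternatives, the 37 named members gave 812 values, of which 671 kept direction and side of the threshold, 97 no longer passed, 26 newly passed and 18 turned in sign. Unless given here, the cause of a change was not tested. The number of members called lower was 26. It was 0 to 49 with 1 library left out, 15 in DESeq2 without WT replicate 2 (an alternative chosen after seeing the data), 16 with length and GC trends removed and 9 with the replicate block and these trends removed. The members called higher numbered 2 in DESeq2, 3 with the trends removed, and 0 to 2 with 1 library left out. Members called lower in complexes I to V numbered 0 to 22, 0 to 2, 0 to 5, 0 to 9 and 0 to 11 with 1 library left out. Under DESeq2 they numbered 1 in complex II, 4 in complex III and 9 in complex V, and in DESeq2 without WT replicate 2 they numbered 8 in complex I and 2 in complex IV. With the trends removed they numbered 1 in complex III, 3 in complex IV and 2 in complex V. With the replicate block and the trends removed they numbered 5, 1, 2 and 1 in complexes I, III, IV and V. The medians of complexes I, III, IV and V were -0.24, -0.10, -0.15 and -0.32 with the trends removed, and -0.25, -0.13, -0.17 and -0.32 with the block as well.

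Same-numbered libraries had correlations of 0.023, 0.044 and 0.134 between their deviations from the group means over all tested genes. Other pairs had -0.109 to 0.054, the highest between STAT6-/- replicate 2 and WT replicate 1. With 3 libraries a group, these values cannot decide whether the numbers pair the samples. Among the members, replicate 2 was most often the highest library and replicate 3 the lowest in both groups. Pairing was not tested further. The replicate block gave 35 members lower (42.2%, beside 9.59% of all tested genes), 25 of them among the 26, and 9 in complex V.

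The sign turned in members with log2 fold changes near 0, and in Ndufa4. With the trends removed Cox4i1 was 0.01, Ndufa4 0.23 and Sdha -0.00, and with the block as well Ndufa4 was 0.22 and Sdha -0.02. Under limma-voom and upper quartile scaling, Cox7a1 was -0.01 and -0.03 and Sdha -0.00 and -0.02. In DESeq2 without WT replicate 3, also chosen after seeing the data, they were -0.18 and -0.06, and with the replicate block Cox7a1 was -0.01. With 1 library left out, Cox4i1 ranged from -0.51 to 0.06, Cox7a1 from -0.25 to 0.31 and Sdha from -0.15 to 0.21. Cox8b and Cox6a2 rest on 1 to 7 counts per STAT6-/- library, so their fold changes are limited by depth.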
